A study of Saccharomyces cerevisiae with 24 samples.

Results

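The genes described here encode the subunits of RNA polymerases I, II and III (Pol I, Pol II and Pol III) of budding yeast. They were taken from the authors' annotation of the W303 genome as the gene features that carry the name of 1 of 31 subunits, and all 31 were found, as 32 of the 5630 gene features. By enzyme, 7 genes encode subunits of Pol I alone, 7 of Pol II alone, 12 of Pol III and 5 of all 3 enzymes. The Pol III group includes RPC40 and RPC19, which Pol I uses as well. Gene Ontology complex terms in the S288C reference placed the members with the same enzymes, 14 with Pol I, 12 with Pol II and 17 with Pol III.

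The study mapped Uls1, a chromatin remodelling enzyme of the Snf2 family, and DNA topoisomerase II (Top2) by ChIP-seq in 24 libraries. They form 12 groups of 2 that count immunoprecipitate and input apart. FLAG-tagged Uls1 was followed in wild-type cells given 100 µM acriflavine (ACF, a Top2 poison) for 2 h or kept in YPD medium without it. HA-tagged Top2 was followed in uls1Δ and wild-type cells given 250 µM ACF for 2 h or kept in YPD. The Top2-HA strains carry an extra tagged copy of TOP2 under its own promoter, and DNA of 2 experimental replicates was combined for a ChIP library. Library signal and depth were not analysed here. The values below are positions, lengths and labels of the W303 annotation (assembly ASM216351v1), and sequences of the S288C reference (R64). They have no replicate error, and no comparison of treatments or genotypes is made.

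Eukaryotic cells divide transcription among these enzymes: Pol I makes the large ribosomal RNA precursor, Pol II makes messenger RNAs and Pol III makes tRNAs, 5S ribosomal RNA and other small RNAs. Each enzyme has a core built on a pair of large subunits that form the active centre, a stalk of smaller subunits, and a set of small subunits that all enzymes share. All subunit genes are themselves transcribed by Pol II. In yeast, genes for ribosome synthesis often carry a pair of promoter elements, PAC (named after polymerases A and C, the older names of Pol I and Pol III) and RRPE (the ribosomal RNA processing element).

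The PAC core GATGAG was found next to most subunit genes of Pol I and Pol III that Pol II does not share, and next to few others. The element has its name from these same enzymes, so its presence next to their genes is a description and no independent finding. It lay in the promoter windows of 6 of 7 Pol I genes and 10 of 12 Pol III genes, and in those of 1 of 7 Pol II genes and 0 of 5 genes common to all enzymes. A window ran from 250 bases before the start codon to 50 bases from the start codon on in R64, and both strands were searched. In all, 17 of 31 members (54.8%) had a match, against 20.4% of all 6001 promoter windows. With the common genes counted in each enzyme, the core was found for 8 of 14 Pol I, 1 of 12 Pol II and 10 of 17 Pol III genes. The exceptions among the genes not shared with Pol II were RPA12 in the Pol I group, and RPC17 and RPC11 in the Pol III group. The match of the Pol II gene RPB2 began at position 34 of its reading frame, so with only the 250 bases before the start codon 16 members had a match (6 of Pol I, 0 of Pol II, 10 of Pol III and 0 common), or 51.6% of members against 17% of all windows.

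The RRPE core AAAAATTT was spread more widely over the members. Its matches lay in the windows of 6 of 7 Pol I genes, 2 of 7 Pol II genes (RPO21 and RPB9), 9 of 12 Pol III genes and 4 of 5 common genes, or 21 of 31 members (67.7%) against 14.1% of all windows. The common genes RPB5, RPO26, RPB8 and RPB10 thus held an RRPE core and no PAC core. Both cores stood in 6 of 7 Pol I windows and 8 of 12 Pol III windows and in no window of the other groups, which makes 14 of 31 (45.2%) against 5.63% of all windows. An A/T run can hold overlapping RRPE cores on both strands, and windows of neighbouring genes can overlap, so the 6001 windows are not independent.

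**Figure D1:**
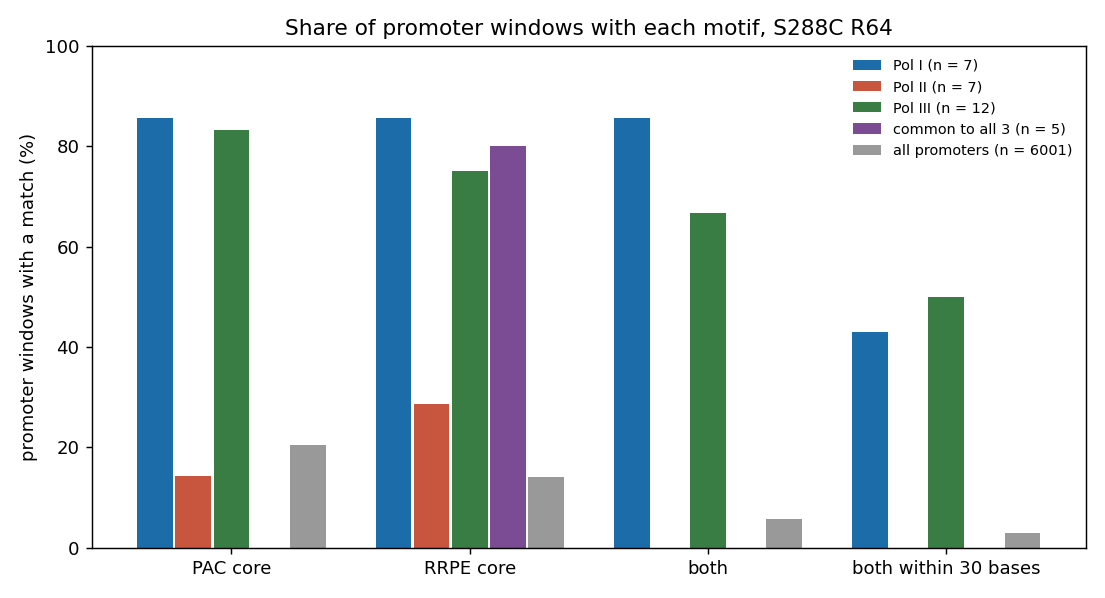
Bars give the percent of promoter windows with a PAC core, an RRPE core, both, or both within 30 bases, for the subunit genes of each group and, in grey, for all 6001 windows. The Pol I and Pol III bars stand above the grey bar in each class, and the common group has bars for the RRPE core alone.

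The elements are shown because both cores stood close together in many Pol I and Pol III genes. A stretch of at most 30 bases with both cores and no overlap between them was found in 3 of 7 Pol I windows and 6 of 12 Pol III windows, 9 of 31 in all (29%), against 2.93% of all windows. This measure was chosen after the positions had been seen. The 9 stretches follow 5′ to 3′ on the strand of the gene, with R64 coordinates and with both cores in capitals. A PAC core on the other strand reads CTCATC and an RRPE core AAATTTTT.
RPA190 (chr15:960793-960822, plus strand): aaAAATTTTTtttatttcaaatCTCATCtc
RPA49 (chr14:182728-182757, minus strand): gctgaAAATTTTTtattgcGATGAGctgaa
RPA34 (chr10:140309-140338, plus strand): gaaatgAAAAATTTtatcGATGAGcattga
RPO31 (chr15:544231-544260, minus strand): tgcactAAATTTTTaaaCTCATCactggtt
RET1 (chr15:733563-733592, minus strand): ttgtgaGATGAGctgaAAATTTTTcgatct
RPC82 (chr16:919153-919182, minus strand): atcagAAATTTTTcaaaagCTCATCgcatt
RPC40 (chr16:746893-746922, minus strand): ttgcGATGAGttgaaagaAAAAATTTcact
RPC25 (chr11:176651-176680, minus strand): cgatgCTCATCgcttaAAATTTTTatttga
RPC19 (chr14:412642-412671, plus strand): gcGATGAGctggaaaaaaaAAAAATTTcaa

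The number of bases between the cores was 3 in RPO31, 4 in RPA34 and RET1, 5 in RPC25, 6 in RPA49 and RPC82, 8 in RPC40, 11 in RPC19 and 12 in RPA190. RRPE stood on the 5′ side in all 3 Pol I stretches and in 2 of the 6 Pol III stretches. The same order was found in 115 of the 176 stretches over all windows. The other 5 members with both cores had them farther apart, with 17 bases between them in RPA135, 19 in RPA43, 27 in RPC34, 42 in RPC53 and 57 in RPA14.

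For each remaining member with a PAC core, 1 core is shown in capitals with its flanks, so that it can be set beside those above. RPA135 and RPC37 have 2 further cores each and RPC53 has 1, which are not capitalised. RPC31 and RPC37 held no RRPE core, and the core of RPB2 lies inside its reading frame.
RPA135 (chr16:581289-581316, minus strand): catcttagagaCTCATCtcatctcttaa
RPA43 (chr15:960348-960375, minus strand): gaaaagattccGATGAGggtgtatgggt
RPA14 (chr4:769455-769482, plus strand): attatagaggtCTCATCggtaaggcaga
RPC53 (chr4:183093-183119, plus strand): gctatgatgaGATGAGcttcattattg
RPC37 (chr11:487696-487723, plus strand): taaaagcgagaGATGAGcttaaatgatc
RPC34 (chr14:635342-635369, minus strand): tgtatttgtgaGATGAGatcattacaga
RPC31 (chr14:348588-348615, minus strand): aaaatagtttcCTCATCgcagcaaccta
RPB2 (chr15:616622-616649, minus strand): aaaagtattatGATGAGgacccatatgg

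The members held 23 PAC matches, of which 19 lay wholly before the start codon, 2 overlapped it and 2 lay in the reading frame. RPA190, RPA135 and RPC53 had a pair of cores that shared a base. The matches that began before the start codon had a median position of -110, against -124 in all windows. The longer form GCGATGAG was found for RPA49, RPC82, RPC40, RPC31, RPC25 and RPC19, or 6 of 31 members (19.4%) against 3.93% of all windows. Read on the strand of the gene alone, the core was found for 11 members (35.5%), against 11.9% of windows.

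**Figure D2:**
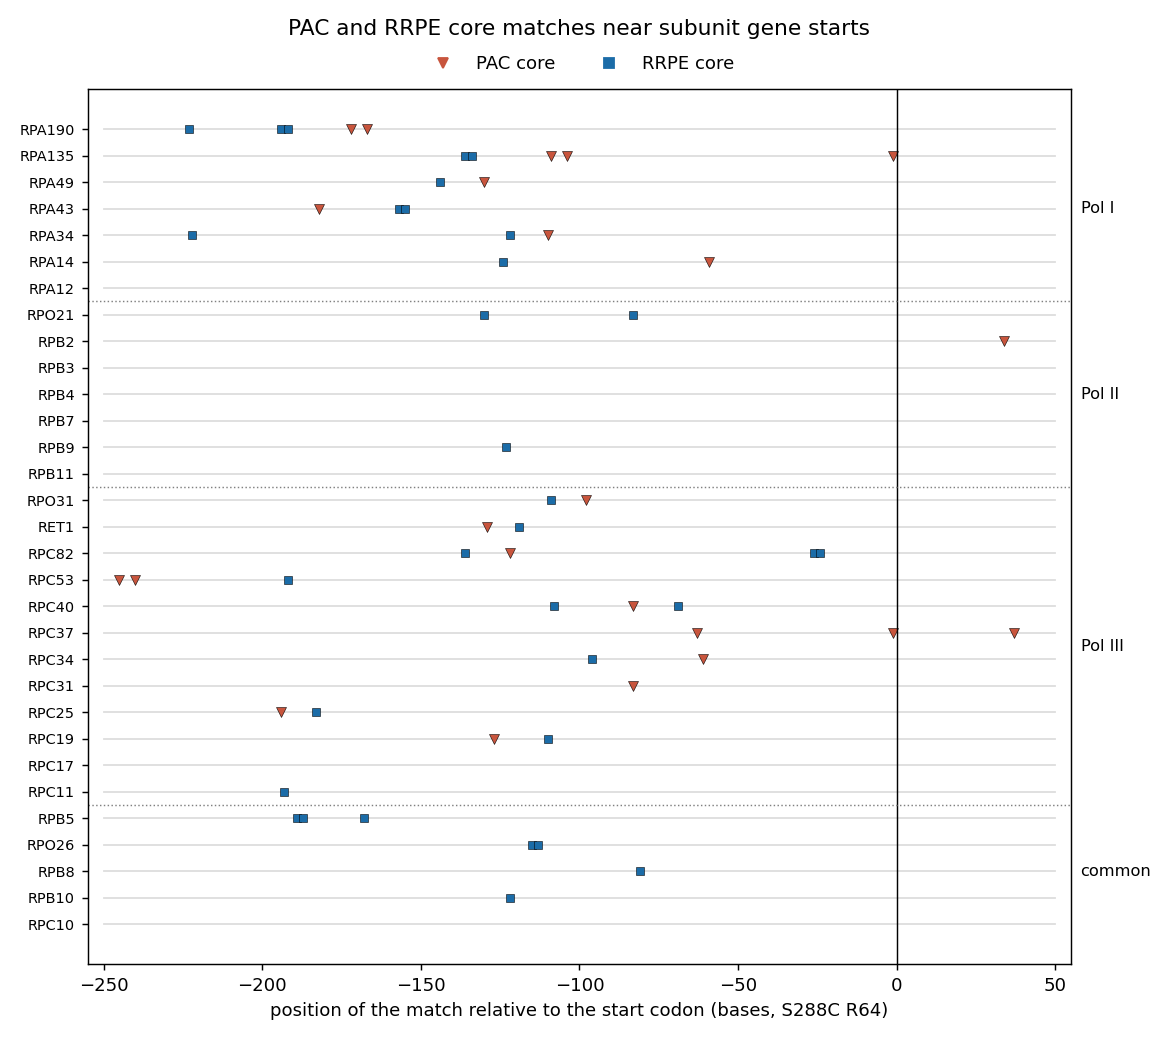
Each line is the promoter window of a subunit gene, with the start codon at 0. Triangles mark PAC cores and squares RRPE cores by the position of their first base in R64. PAC cores before the start codon are seen in the Pol I and Pol III lines, and squares without a triangle in the lines of 4 common genes, RPO21, RPB9 and RPC11.

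Other promoter words were found in fewer members. The word TATAAA stood in 15 of 31 windows (48.4%), against 45.2% of all windows. The binding word TTACCCG of Reb1, a general regulatory factor, was found for RPA14, RPB9, RPB11 and RPC19 (12.9%, against 7.08%). A word of CGT, 6 bases of any kind and ACG was searched with Abf1, another such factor, in mind. It was found for RPA135, RPC82 and RPC10 (9.68%, against 1.7%). This word reads the same on both strands and is not the full Abf1 site, so its matches cannot be taken as Abf1 sites. These matches are descriptions of letters, and no binding was measured.

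In the factors that work with each enzyme, the counts are to be read against the same shares of all windows, 20.4% for PAC and 14.1% for RRPE. Of the 8 Pol I factor genes, 6 had a PAC core (75%) and 0 an RRPE core. Of the 19 Pol II general factor genes, 6 had a PAC core (31.6%) and 3 an RRPE core (15.8%). Of the 9 Pol III factor genes, 1 had a PAC core (TFC6, of the tRNA gene factor TFIIIC, 11.1%) and 0 an RRPE core. The 6 assembly factor genes had 3 with a PAC core and 2 with an RRPE core. In lists of this size, the counts of Pol II and Pol III factors lie near the shares of all windows.

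The sizes and places of the genes follow by the role of their products, with chromosome, start and end in W303. The genes of the largest subunits, which form most of the active centre, were among the longest of the genome. RPO21, the largest subunit of Pol II, was 5202 bp long (chromosome 4, 205477 to 210678, minus strand), which was rank 64 of 5613 nuclear gene features. RPA190 of Pol I measured 4995 bp (chromosome 15, 962459 to 967453, plus strand) and RPO31 of Pol III 4383 bp (chromosome 15, 540188 to 544570, minus strand), at ranks 72 and 133. Their S288C proteins are 192, 186 and 162 kDa. RPO21 alone has the C-terminal repeat that couples Pol II to RNA processing. Its heptad YSPTSPS was found 19 times without a mismatch, between residues 1556 and 1702 of 1733, and 0 times in RPA190 and RPO31. The largest subunits shared 36.5% (RPO21 and RPO31), 31.8% (RPA190 and RPO31) and 29.8% (RPA190 and RPO21) of the residues of the shorter protein.

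The second-largest subunits complete the active centre. RPB2 of Pol II was 3675 bp long (chromosome 15, 613422 to 617096, minus strand), RPA135 of Pol I 3612 bp (chromosome 16, 748437 to 752048, minus strand) and RET1 of Pol III 3450 bp (chromosome 15, 730763 to 734212, minus strand). RPB2 and RET1 had the highest identity of the 17 pairs of equivalent subunits compared, at 40.7%. RPA135 shared 32.3% with RET1 and 30.8% with RPB2. In both large families the Pol II and Pol III proteins were thus closer to each other than either was to the Pol I protein.

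Upstream of these 6 genes the gaps were mostly wide. The nearest gene on the 5′ side lay at 883 bp for RPO31 (RPT5, a proteasome ATPase), 846 bp for RPB2 (YOR152C), 813 bp for RPO21 (SCM3, a centromeric histone chaperone), 804 bp for RPA190 (RPA43), 1225 bp for RPA135 (YPR010C-A) and 467 bp for RET1 (PTP2, a phosphatase). The median over all 5440 nuclear genes with a strand and a neighbour was 480 bp, so RET1 alone fell below it. An ARS consensus match, a sequence word of replication origins, stood 5 bp upstream of RPO21 (chromosome 4, 210684 to 210695). No match lay inside a member, and 1.5% of all nuclear gene features held or touched one.

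The assembly subunits hold the large subunits together. RPC40 (1008 bp, chromosome 16, 916732 to 917739, minus strand) and RPC19 (429 bp, chromosome 14, 413709 to 414137, plus strand) serve Pol I and Pol III, and RPB3 (957 bp, chromosome 9, 303084 to 304040, plus strand) and RPB11 (363 bp, chromosome 15, 316088 to 316450, minus strand) serve Pol II. Identity was 23.9% between RPC40 and RPB3 and 26.7% between RPC19 and RPB11. The PAC and RRPE cores split along the same line: RPC40 and RPC19 had both, and RPB3 and RPB11 had neither. Other words did not, since TTACCCG was found for RPC19 and RPB11, and TATAAA for RPC40, RPC19 and RPB3. On its 3′ side RPB11 had TOP1, the type I topoisomerase gene, on the same strand at 425 bp.

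The stalk subunits reach out to initiation factors and to the RNA that leaves the enzyme. RPA43 (981 bp, chromosome 15, 960674 to 961654, minus strand) and RPA14 (414 bp, chromosome 4, 772609 to 773022, plus strand) form the stalk of Pol I. RPB7 (516 bp, chromosome 4, 1281119 to 1281634, minus strand) and RPB4 (666 bp, chromosome 10, 151710 to 152375, plus strand) form that of Pol II. RPC25 (639 bp, chromosome 11, 176931 to 177569, minus strand) and RPC17 (486 bp, chromosome 10, 421065 to 421550, minus strand) form that of Pol III. RPC17 had the widest upstream gap of the members, 2791 bp to NOP9. In R64 a tRNA gene lies in this gap, 195 bp upstream of RPC17, but the W303 annotation has tRNA features on chromosomes 1 to 7 alone, so none is seen there.

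Identity in the stalk was low and depended on the alignment. It was 26.9% for RPB7 and RPC25, 25.1% for RPA43 and RPB7, 24.8% for RPB4 and RPC17, 17.5% for RPA43 and RPC25, 14.6% for RPA14 and RPB4, and 13.1% for RPA14 and RPC17, the lowest of the 17 pairs. With a gap opening of 12 and an extension of 2 in place of 10 and 0.5, RPA43 and RPB7 fell to 0.0%, RPA43 and RPC25 to 0.9% and RPB4 and RPC17 to 5.6%, with end gaps free in both settings. RPA14 and RPB4 gave 9.5%, RPA14 and RPC17 11.7% and RPB7 and RPC25 25.1%. The identities of the first 3 pairs are therefore no firm measurements.

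**Figure D3:**
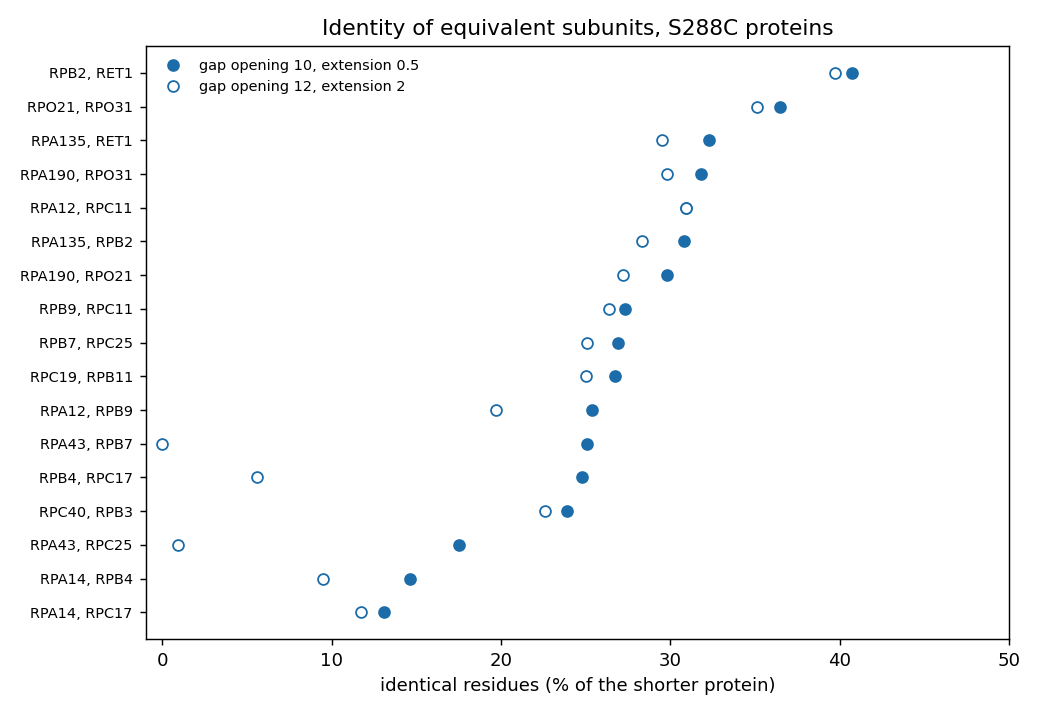
Points give the percent of identical residues, relative to the shorter protein, for 17 pairs of equivalent subunits under the main gap costs (filled) and costlier gaps (open). The pairs of large subunits lie between 29.8 and 40.7% when filled, and 3 stalk pairs fall to between 0.0 and 5.6% when open.

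The small zinc-ribbon subunits act in RNA cleavage and fidelity. RPB9 of Pol II was 369 bp long (chromosome 7, 371052 to 371420, minus strand) and RPC11 of Pol III 333 bp (chromosome 4, 551253 to 551585, minus strand), the shortest gene among those of a single enzyme. RPA12 of Pol I and RPC11 shared 30.9%, RPB9 and RPC11 27.3%, and RPA12 and RPB9 25.4%. The proteins had 4 (RPA12), 4 (RPB9) and 3 (RPC11) pairs of cysteines spaced as in zinc ribbons (C, 2 residues of any kind, C). No PAC core was found for any gene of this family, although Pol I and Pol III use RPA12 and RPC11.

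RPA12 was the only member with more than 1 feature. The W303 file names a pair of features RPA12, at 574531 to 574893 on the plus strand (363 bp) and at 575073 to 575450 with no strand (378 bp), both on chromosome 10 and both noted as different in size from S288C. The length in S288C is 378 bp, so the second feature has the S288C length in spite of its note, and the first is 121 codons long against 126. The interval between the flanking genes NTA1 and CCT5 was 1606 bp in W303 and 1064 bp in S288C, a difference of 542 bp, which was also the distance between the starts of both features. The gap from NTA1 to the first feature (345 bp) and that from the second feature to CCT5 (341 bp) were those around the RPA12 gene of S288C. W303 sequence was not analysed here, so a difference of the strain and one of the assembly cannot be told apart.

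**Figure D4:**
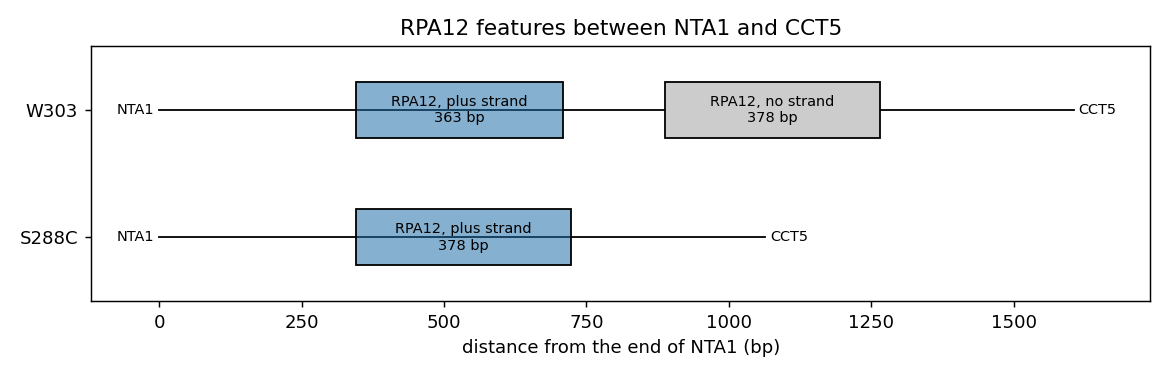
Boxes are the features named RPA12 between NTA1 and CCT5, drawn to scale by distance from the end of NTA1 in W303 (upper line) and S288C (lower line). The W303 line holds a feature of 363 bp and another of 378 bp in an interval that is 542 bp longer.

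With this exception the members had the size of their S288C counterparts. The size note was different for 1 of 31 genes, against 9.31% of all 5630 gene features, and the length differed from R64 for the same gene alone, against 9.46% of 5584 features. RPA12 was also the only member whose name was used for more than 1 feature (2.37% of 5021 named features) and the only member with a feature that lacked a strand (3.29% of all features). Among 53 reused names, 10 belonged to exactly 2 features within 1000 bp, and in 8 of these 1 feature had no strand, as for RPA12.

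Subunits that only Pol I or Pol III has include a pair that resembles the Pol II factor TFIIF. In Pol I these are RPA49 (1248 bp, chromosome 14, 181916 to 183163, minus strand) and RPA34 (702 bp, chromosome 10, 141186 to 141887, plus strand). In Pol III they are RPC53 (1269 bp, chromosome 4, 183459 to 184727, plus strand) and RPC37 (849 bp, chromosome 11, 496742 to 497590, plus strand). All of these genes had a PAC core. RPC53 and RPC37 shared their upstream regions with divergent genes of ribosome synthesis, SAS10 at 324 bp and DBP7 at 397 bp. The PAC cores of RPC53 began at -245 and -240 and so lay nearer to SAS10 than to RPC53. Which gene they serve was not tested.

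Pol III has a further trimer that acts in initiation. RPC82 was 1965 bp long (chromosome 16, 167697 to 169661, minus strand), RPC34 954 bp (chromosome 14, 649813 to 650766, minus strand) and RPC31 756 bp (chromosome 14, 348368 to 349123, minus strand). RPC34 lay nearest to a centromere of all members, at 5878 bp. The RPC31 protein ends in an acidic tail, with 60% aspartate and glutamate in its last 50 residues and an isoelectric point of 4.24, the lowest of the members. An ARS consensus match stood 367 bp upstream of RPC31 and another 259 bp upstream of RPB4.

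The subunits common to all enzymes were the shortest as a group. RPB5, which contacts downstream DNA, was 648 bp long (chromosome 2, 566164 to 566811, minus strand), RPO26 544 bp (chromosome 16, 161877 to 162420, plus strand), RPB8 441 bp (chromosome 15, 761580 to 762020, minus strand), and RPB10 (chromosome 15, 739075 to 739287, plus strand) and RPC10 (chromosome 8, 395304 to 395516, plus strand) 213 bp each. Their median was 441 bp, against 841.5 bp for Pol I, 666 bp for Pol II and 901.5 bp for Pol III features. All members together had a median of 684 bp, and all 5613 nuclear gene features one of 1230 bp. RPC10 shares the ID attribute of its neighbour DSE2 in the file, as 1 of 147 gene features whose ID and name differ.

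RPO26 was the only member with an intron in R64. It has a first exon of 20 bases, an intron of 76 bases and a second exon of 448 bases, and the annotated 544 bp in W303 span all of them. The first exon, the intron and the first 30 bases of the second exon are printed with exons in capitals and the intron in lower case, since this short intron sets the gene apart from the other members.
RPO26 (chr16:911257-911382, plus strand): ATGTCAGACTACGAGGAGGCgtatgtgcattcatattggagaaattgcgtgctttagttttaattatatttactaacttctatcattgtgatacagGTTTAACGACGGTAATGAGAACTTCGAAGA
The intron begins with the yeast donor word GTATGT, holds the branch point word TACTAAC from base 51, 19 bases before its end, and closes with CAG. Its size note was the same as in S288C, whereas 59.5% of the 257 features with more than 1 coding segment in R64 were noted as different. Upstream, 234 bp away, lay the divergent gene PZF1, which encodes TFIIIA, the 5S ribosomal RNA gene factor of Pol III. This was the narrowest upstream gap of the members.

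Upstream gaps of the members ranged from 234 to 2791 bp with a median of 593 bp, against 480 bp for all genes. With features of any class counted as neighbours, such as ARS matches, the medians were 476 bp for members and 463 bp for all genes, so most of this difference was lost. By group the medians were 804 bp for Pol I, 570 bp for Pol II, 556 bp for Pol III and 593 bp for common genes. By gene neighbours, the difference lay with the tandem ones. Members with a tandem 5′ neighbour had a median gap of 829 bp (n = 10), against 419 bp for all such genes. Those with a divergent neighbour had 524 bp (n = 21), against 561 bp. Downstream gaps had medians of 314 bp for members and 311 bp for all genes.

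**Figure D5:**
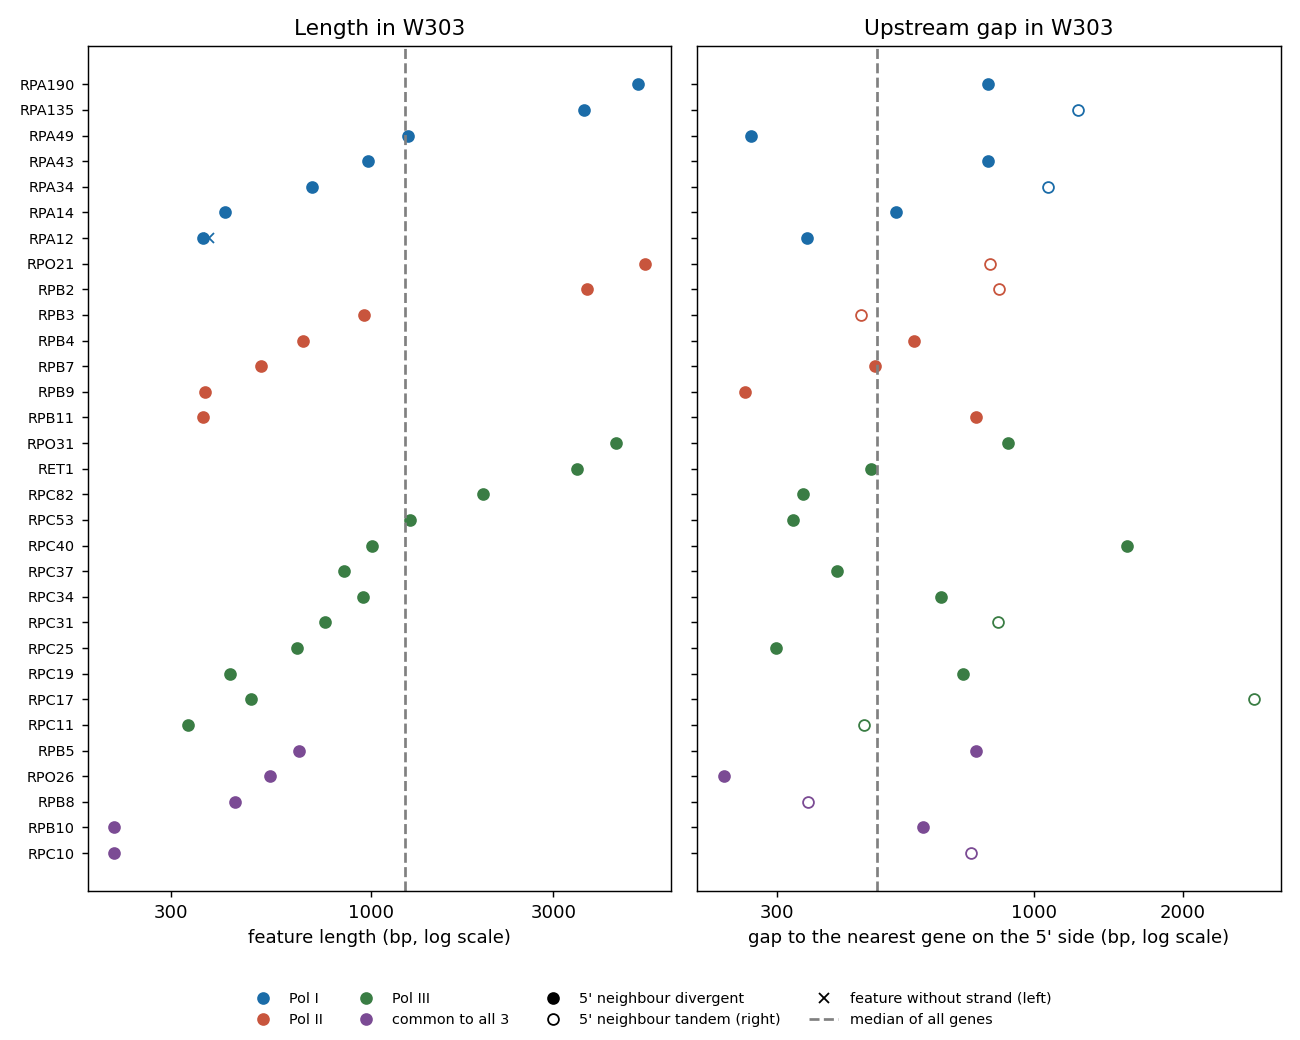
Points give the length (left) and the upstream gap (right) of each subunit gene in W303 on log axes, coloured by enzyme, and dashed lines give the medians of all nuclear genes. The cross is the RPA12 feature without a strand. On the right, filled points have a divergent 5′ neighbour and open points a tandem one, and the open points of RPC17, RPA135 and RPA34 lie above 1000 bp.

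The 5′ neighbour was divergent for 21 of 31 members (67.7%), against 52.1% of 5367 genes. RPA43 and RPA190 are each other's divergent neighbour and are both counted. The share rests on few genes, and its difference from that of all genes was not tested. The counts were 5 of 7 for Pol I, 4 of 7 for Pol II, 9 of 12 for Pol III and 3 of 5 for common genes. The 3′ neighbour was convergent for 21 of 30 members (70%), against 52.1% of 5371 genes, and for 5 of 5 common genes. A total of 12 members had both. Members lay on the plus strand in 12 cases and on the minus strand in 19.

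Few pairs of subunit genes lay together. Their share within 10 kb was above that of all genes but rests on 4 pairs. Of 465 pairs of members, 57 shared a chromosome and 4 lay within 10 kb (0.86%), and of the 262 pairs that share an enzyme 3 did (1.15%), against 0.182% of all pairs of nuclear gene features. RPA43 and RPA190 were the only neighbours, divergent with 804 bp between them. RET1 and RPB10 had 4862 bp and 2 genes between them, and RPO26 and RPC82 had 5276 bp and 2 genes. RPA34 and RPB4, of different enzymes, were 9822 bp apart. The region shared by RPA43 and RPA190 in R64 (chromosome 15, 960183 to 960986) held 3 PAC cores, of which 2 lay 161 and 166 bases from the start codon of RPA190 and 1 lay 176 bases from that of RPA43, and 5 RRPE cores. Of these RRPE cores, those 147 and 149 bases from the start codon of RPA43 overlap, as do those at 610 and 612 bases. Each start codon thus had a PAC core nearer to it than to the other start codon. Which gene the cores serve was not tested.

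Chromosome 15 carried 8 members (25.8%), against 9.1% of nuclear gene features. Chromosome 4 carried 5, chromosomes 10, 14 and 16 carried 4 each, chromosome 11 carried 2, and chromosomes 2, 7, 8 and 9 carried 1 each. The other 6 chromosomes had none, among them chromosome 12, which holds the ribosomal RNA genes that Pol I transcribes. In the W303 assembly the nearest chromosome end was at a median of 205476 bp for members and 211601 bp for all genes. The centromere was at 286444 bp for members and 215971 bp for all genes. In R64 the nearest tRNA gene lay at a median of 20571 bp from members and 16603.5 bp from all 6002 genes.

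All 31 members had the chromosome, strand and 5′ neighbour of their S288C counterparts, whereas 8.55% of 5428 genes had another 5′ neighbour in W303 than in S288C. The upstream gap differed for 3 members, against 18.7% of 4964 genes with the same neighbour. It was 1545 bp in W303 and 470 bp in S288C for RPC40, 1225 bp in W303 and 1176 bp in S288C for RPA135, and 452 bp in W303 and 451 bp in S288C for RPC11. Next to RPC40, DBF20, a cell cycle kinase gene, is 960 bp in W303 and 1695 bp in S288C, and the distance between the end of RPC40 and the far end of DBF20 is 2505 bp in W303 and 2165 bp in S288C. The wider gap thus goes with a shorter DBF20 feature and a distance that is 340 bp longer. The PAC core of RPC40 begins at position -83 in S288C and its RRPE cores at -108 and -69, and whether they lie there in W303 was not analysed here. Downstream, RPA14 has HOM2 at 418 bp in W303, whereas in S288C its 3′ neighbour is YDR157W with a gap of -8 bp, an overlap.

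Along chromosome 16 the order of the members differed between the assemblies. In W303 it was RPO26, RPC82, RPA135 and RPC40, starting at 161877, 167697, 748437 and 916732. In S288C it was RPA135, RPC40, RPO26 and RPC82, starting at 577585, 745828, 911257 and 917077. RPO26 and RPC82 were shifted together by -749380 bp, and their spacing was the same. Distances to the nearest chromosome end differed as well. They were 161876 bp for RPO26, 167696 bp for RPC82, 234152 bp for RPA135 and 68461 bp for RPC40 in W303. In S288C they were 36266, 29025, 366870 and 201231 bp. All members on other chromosomes were shifted by between -9821 and 19336 bp, with RPA12 taken by its first feature. The second RPA12 feature was shifted by 19878 bp.

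The 42 genes on the lists of factors that work with the enzymes were all present in the W303 annotation, and 2 were noted as different in size. KIN28, a kinase of the Pol II factor TFIIH, was 990 bp in W303 and 1002 bp in S288C, and MAF1, the repressor of Pol III, was 717 bp in W303 and 1268 bp in S288C. Both have an intron in S288C. In the W303 annotation MAF1 thus spans less than its coding length of 1188 bases in S288C.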

How the data were processed

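The deposited annotation of the W303 genome holds positions in bases and labels, and no library values were analysed here. The authors made it by running the Yeast Genome Annotation Pipeline (version not given in the sources used here) on ASM216351v1, searching for missed reading frames by BLASTn, adding names from S288C and noting for each gene whether its length was that of S288C. ARS consensus matches were placed with Biopython and centromeres by BLAST. Per the labels there were 24 libraries in 12 groups of 2.

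Genes were matched to R64 by systematic name, and each build kept its own coordinates. A gap is the number of bases between a gene and the nearest gene feature on that side. Promoter windows (300 bases) and proteins were read from the RefSeq genome and annotation of R64, in place of ready-made tables. Proteins were aligned over their whole length with Biopython 1.88 (BLOSUM62, gap opening 10, extension 0.5, end gaps free). Scripts ran in Python 3.11.15. The search for the PAC core was tried on made-up sequences of A and C with a planted core, which can hold few other matches. The other words were not tried in this way. All 31 members, their neighbours and list genes with a size difference are named. Members and lists were chosen with earlier results of these data known. No test across genes was made, since an annotation has no replicates.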

Additional observations from a re-analysis of the deposited data

How the results depend on the processing

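Of 20 alternatives computed for the medians and counts, 14 stayed near the value in the text and 6 moved. Near meant within 10% for a median and within 1.5-fold for a count, which is a wide limit for small counts. With names used for 1 feature alone, 0 members had a size note of a difference, in place of 1, since RPA12 was left out. Counting ARS matches and other classes as neighbours gave a median upstream gap of 476 bp for members in place of 593 bp, and of 463 bp for all genes in place of 480 bp. With 50 kb as the limit, 5 pairs of subunit genes of an enzyme lay together in place of 3. With 5 kb, 2 pairs did, which was classed as near. The PAC core was found for 6 members in its 8-letter form and for 11 on the gene strand, in place of 17. Identity relative to aligned columns had a median of 31.6% in place of 26.9%. The share of divergent neighbours was 67.7% in S288C as in W303, an alternative chosen after the data had been seen. No paired analysis was possible because no library values were analysed here. Precision is that of the annotation: tRNA features are on chromosomes 1 to 7 alone, and promoters and proteins are those of S288C.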

Other observations

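Beside some Pol III subunit genes lay genes of ribosome synthesis, a list chosen after the neighbours had been seen and counted against no background. Most neighbours of the Pol III genes were not on this list. Among them were RPT5 beside RPO31, QCR2 and SKI3 beside RPC82, and BAP3 and HEM13 beside RPC11. LTV1, of small subunit assembly, lay 299 bp upstream of RPC25 and divergent to it, as SAS10 and DBP7 lay beside RPC53 and RPC37. The PAC core in the RPC25 window began at -194 and so lay nearer to LTV1 than to RPC25. NOP9, which acts in small subunit synthesis, was the tandem 5′ neighbour of RPC17 at 2791 bp, with a tRNA gene between them in R64. On the 3′ side, NOC2, of large subunit export, lay 363 bp from RET1.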
